A study of Mus musculus with 17 samples.

Results

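The 34 genes described here are interferon-stimulated genes, fixed as a list of symbols and matched to the rows of the count tables, which hold 43430 genes. All 34 were found in both tables, under 1 Ensembl identifier each. The RNA came from alveolar type 2 (AT2) epithelial cells, which make lung surfactant, sorted from C57BL/6J mice labelled 2 months old. In the first experiment 4 vehicle libraries were compared with 4 ISRIB libraries, from naive mice whose cells were taken 24 hours after dosing, and these libraries were made from 3 ng of RNA with poly(A) selection. ISRIB is a small molecule that blunts the integrated stress response by acting on the translation factor eIF2B. In the other experiment 4 naive libraries were compared with 5 bleomycin libraries, made from 0.35 ng of RNA with a total-RNA kit, and the bleomycin cells were taken 14 days after the drug. Bleomycin is a DNA-damaging drug used to model lung fibrosis. The titles and treatment labels put both the naive and the bleomycin libraries under saline or vehicle, and doses and routes are not stated there. The kit differed between the experiments, so every test was made within 1 kit. No label ties a library to its own animal, so the p-values measure the spread between these libraries, which may be in part technical.

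Interferons are secreted cytokines that signal through cell-surface receptors to JAK kinases and STAT factors. Type I and type III interferons activate the complex ISGF3, of which STAT2 and IRF9 are part and which binds the interferon-stimulated response element (ISRE), while type II interferon acts mainly at gamma-activated sites (GAS). The induced genes encode sensors of foreign nucleic acid, enzymes and GTPases that restrict viruses and intracellular microbes, and feedback regulators such as USP18. AT2 cells carry the receptors and are among the lung cells that respond to these cytokines.

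Promoter windows of 300 bases, from 250 before to 50 after a gene start, were taken from RefSeq on GRCm38.p6 and were found for 25 of the 34 members (29 windows, since some genes have several starts). The ISRE core was searched as GAAANNGAAA and the GAS core as TTCNNNGAA, on both strands, and matches were allowed to overlap. An ISRE core lay in 14 of the 29 member windows (48.3%), each of a different gene, against 1131 of all 32851 RefSeq windows (3.44%). A GAS core lay in 7 of the 29 (24.1%), against 2726 of all windows (8.3%). The 7 stretches printed next show how the cores sit in members whose values are described further on. They run 5′ to 3′ on the gene's own strand and end at the base before the gene start, except that of Ifitm3, which runs 30 bases past it. Capitals mark the bases of ISRE cores read on either strand, and overlapping cores merge into 1 run. Coordinates were chr4:156200819-156200938 (minus strand) for Isg15, chr19:34583359-34583528 (plus) for Ifit3, chr3:142559964-142560043 (plus) for Gbp3, chr8:71537473-71537622 (minus) for Bst2, chr7:141010715-141010804 (minus) for Ifitm3, chr11:88999283-88999402 (plus) for Trim25 and chr16:35939028-35939147 (minus) for Dtx3l.
Isg15: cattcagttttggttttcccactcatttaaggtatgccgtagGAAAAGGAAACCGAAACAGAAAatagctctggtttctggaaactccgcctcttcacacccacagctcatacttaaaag
Ifit3: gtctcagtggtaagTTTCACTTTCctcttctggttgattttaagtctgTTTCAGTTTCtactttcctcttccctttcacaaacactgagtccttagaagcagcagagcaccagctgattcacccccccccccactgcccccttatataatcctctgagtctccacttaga
Gbp3: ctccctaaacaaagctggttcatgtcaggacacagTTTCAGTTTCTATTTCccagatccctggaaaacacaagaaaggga
Bst2: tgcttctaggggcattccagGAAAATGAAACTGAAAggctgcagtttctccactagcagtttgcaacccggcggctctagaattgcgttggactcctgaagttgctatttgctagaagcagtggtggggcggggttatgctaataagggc
Ifitm3: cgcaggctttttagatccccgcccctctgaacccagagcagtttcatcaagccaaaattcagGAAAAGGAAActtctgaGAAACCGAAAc
Trim25: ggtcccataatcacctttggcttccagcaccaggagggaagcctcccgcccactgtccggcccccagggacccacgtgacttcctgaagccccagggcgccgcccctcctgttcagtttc
Dtx3l: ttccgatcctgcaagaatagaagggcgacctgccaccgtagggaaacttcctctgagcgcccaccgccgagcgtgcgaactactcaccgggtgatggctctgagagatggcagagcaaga
Isg15 held 3 overlapping cores, the first starting 78 bases before the gene start. Ifit3 held 2 separate cores, starting 156 and 122 bases before the start, and the cores of Gbp3 (45 and 39 bases before) and of Bst2 (130 and 124 bases before) overlapped in pairs. The 2 cores of Ifitm3 lay after the start, at bases 3 and 20. No core was found in the whole windows of Trim25 and Dtx3l. A match is a description of these letters, and binding was not measured.

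The poly(A) libraries held between 10493574 and 15727139 counts and the total-RNA libraries between 3295257 and 6333166. Of these, the 34 members together took 4730 to 6997 counts per poly(A) library and 1302 to 3622 per total-RNA library. All 10 AT2 markers were detected in each of the 4 groups. The biological coefficient of variation estimated by edgeR, a measure of spread between libraries of 1 group, was 7.66% for the poly(A) libraries and 21.1% for the total-RNA libraries. Genes were tested only where enough libraries reached the count filter of edgeR, which left 23 of the 34 members in each comparison, not the same 23: Isg15 was tested only in the poly(A) libraries and Iigp1 only in the total-RNA libraries.

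In untreated AT2 cells the members spanned a wide range of levels, given here as RPKM (counts scaled by library depth and exon length) so that genes can be compared. In the vehicle libraries the highest were Bst2, which encodes the virus-tethering protein tetherin, at 15.3 ± 1.84 RPKM (SD, n = 4), Trim25, a ubiquitin ligase of the RNA-sensing pathway, at 14.7 ± 0.895, and Irf1, a transcription factor induced by type II interferon, at 14.6 ± 1.33. Their ranges over the 4 libraries overlapped, and all were above the range of the next gene, Parp9, at 6.90 ± 0.704. Parp9, Ddx58, Ifitm3, Irf9, Dtx3l, Irgm1, Ifih1, Parp14, Ifi35, Igtp and Stat2 followed, from 6.90 down to 3.73 RPKM, each overlapping its neighbour. Ifit3 was at 0.369 RPKM, Zbp1 at 0.166, Ifit1 at 0.145, Iigp1 at 0.133, Oas1a at 0.117, Gbp3 at 0.0988, Rsad2 at 0.0808, Ifi44 at 0.0807 and Ifit2 at 0.0686, each overlapping its neighbour. Mx1 and Mx2 had 1 count each over the 4 vehicle libraries, and RefSeq lists both as transcribed pseudogenes in its C57BL/6J assembly.

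In the naive total-RNA libraries Trim25 (12.5 ± 1.31 RPKM, n = 4) and Irf1 (10.8 ± 1.8) were again the highest and overlapped, with a gap to Parp14 at 6.5 ± 0.651. Bst2 stood at 3.38 ± 0.758 RPKM there and Ifitm3 at 0.581 ± 0.436, against 15.3 and 5.82 in the vehicle libraries. The kits differed between these groups, so these levels are set side by side without a test.

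**Figure D1:**
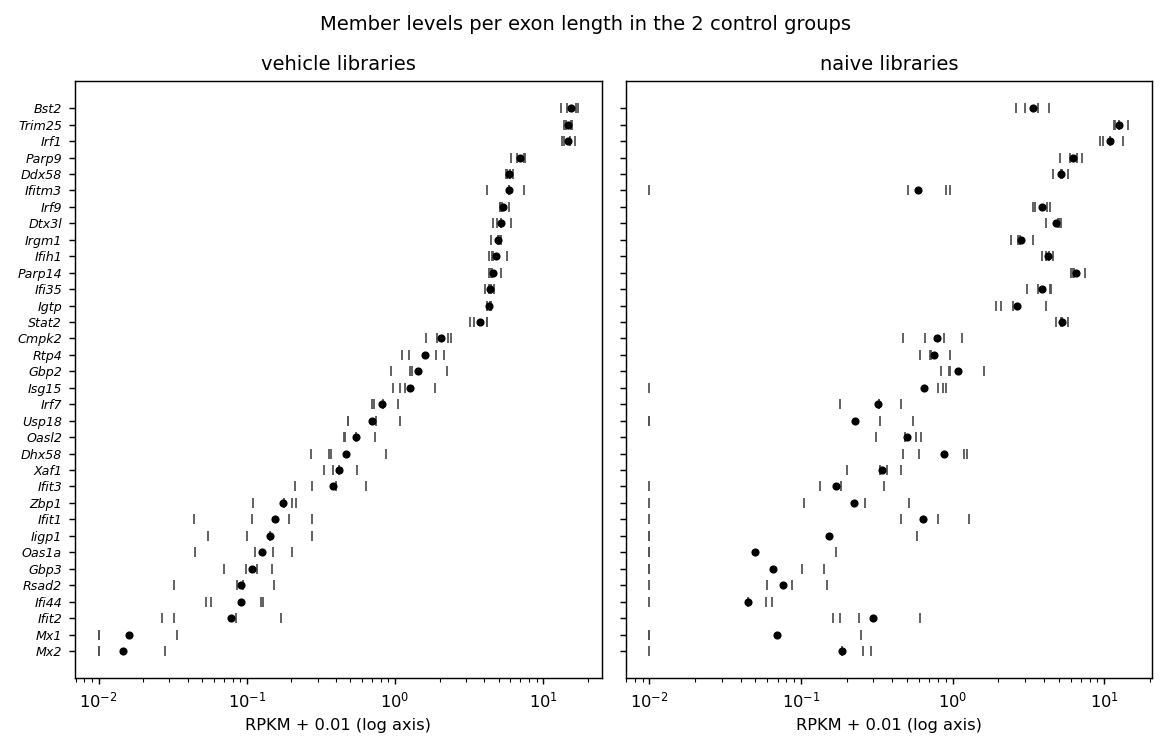
Level of each of the 34 members per exon length in the 4 vehicle libraries (left, poly(A)) and the 4 naive libraries (right, total RNA), as RPKM plus 0.01 on a log axis, with ticks for libraries and a dot for the group mean. Bst2, Trim25 and Irf1 lie at the top in vehicle, and 20 of the 34 members lie below the gap that follows Stat2.

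After ISRIB no member passed the test. Of the 23 members tested, 0 passed an adjusted p under 0.05 in edgeR's quasi-likelihood test with Benjamini-Hochberg adjustment, where 2.2% of all 12054 genes tested passed (265 genes, 1.1% higher and 1.1% lower). DESeq2 and limma-voom also called 0 of the 23, against 3.38% and 2.11% of all genes. In edgeR 3 members had an unadjusted p under 0.05, against 16% of all genes tested. Log2 fold changes ran from -0.37 to 0.63 with a median of -0.01, and the median over all genes tested was 0. The median standard error of the members was 0.13, and that of all genes tested was 0.1. Counts were also simulated at the depth of these libraries and the spread typical of a gene's level. The changed genes were drawn at random from all genes tested. There the test found 69.7% of genes changed by 0.5 on the log2 scale and 92.4% of those changed by 1. These rates are not specific to the members, of which Isg15 (SE 0.34) and Dhx58 (SE 0.38) had wider errors.

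Irf9, the DNA-binding subunit of ISGF3, was at 27.4, 31.6, 27.4 and 28.4 CPM (counts scaled by library depth alone) in the 4 vehicle libraries and 24.1, 24.4, 23.6 and 27.2 in the 4 ISRIB libraries. Every ISRIB library lay below every vehicle library. Its log2 fold change was -0.21 (SE 0.08), with an unadjusted p of 0.0175 and an adjusted p of 0.198 in edgeR's test. Ddx58, which encodes the RNA sensor RIG-I, was at 43.9, 42.1, 39.7 and 39.8 CPM in vehicle and 34.2, 38.8, 33.3 and 38.9 after ISRIB. Here too the groups did not overlap, with a log2 fold change of -0.19 (SE 0.07, edgeR adjusted p = 0.199). These 2 were the members whose ISRIB libraries all lay below the vehicle libraries, and no member had them all above. Over all genes tested, 4.39% lay apart in the lower and 4.26% in the higher direction.

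Cmpk2, a mitochondrial nucleotide kinase gene that neighbours Rsad2 on chromosome 12, had a log2 fold change of -0.37 (SE 0.15, edgeR unadjusted p = 0.0276, adjusted p = 0.239), and its groups overlapped. Isg15, the ubiquitin-like modifier, had the highest estimate, 0.63 with a 95% interval of -0.07 to 1.34 (edgeR adjusted p = 0.376), from 45 counts summed over vehicle and 74 over ISRIB. Its libraries read 1.40, 0.814, 0.721 and 0.873 CPM in vehicle and 1.47, 1.04, 1.34 and 2.02 after ISRIB, with vehicle 1 inside the ISRIB range. The members highest per length stayed near their vehicle levels. Bst2 was at 15.4, 15, 13 and 11.9 CPM in vehicle and 13.5, 18.5, 13.1 and 16.6 after ISRIB (log2 fold change 0.15, 95% interval -0.11 to 0.42). Trim25 was at 78.8, 89.5, 82.0 and 88.5 CPM and then 86.8, 87.5, 81.3 and 86.8 (0.02, -0.11 to 0.14). Irf1 was at 59.8, 64.9, 55.1 and 52.9 CPM and then 50.6, 46.9, 59.7 and 53.2 (-0.15, -0.32 to 0.02). In all 3 genes the groups overlapped. Parp9 was at 29.5, 36.3, 32.1 and 36.6 CPM and then 29.6, 33.7, 33.6 and 33.6, with ISRIB 1 the lowest of its group (-0.04, -0.22 to 0.13). Intervals were as narrow for Parp14 at -0.01 (-0.16 to 0.15) and Irgm1 at -0.08 (-0.24 to 0.08). They were wide for Dhx58 (0.44, -0.36 to 1.25), which encodes the RIG-I-like receptor LGP2, and for Usp18 (0.03, -0.67 to 0.73). The 11 untested members, among them Ifit1, Ifit2, Ifit3, Oas1a, Mx1, Mx2 and Rsad2, had between 1 and 35 counts over the 4 vehicle libraries and between 2 and 37 over the 4 ISRIB libraries, and all 11 overlapped between the groups.

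**Figure D2:**
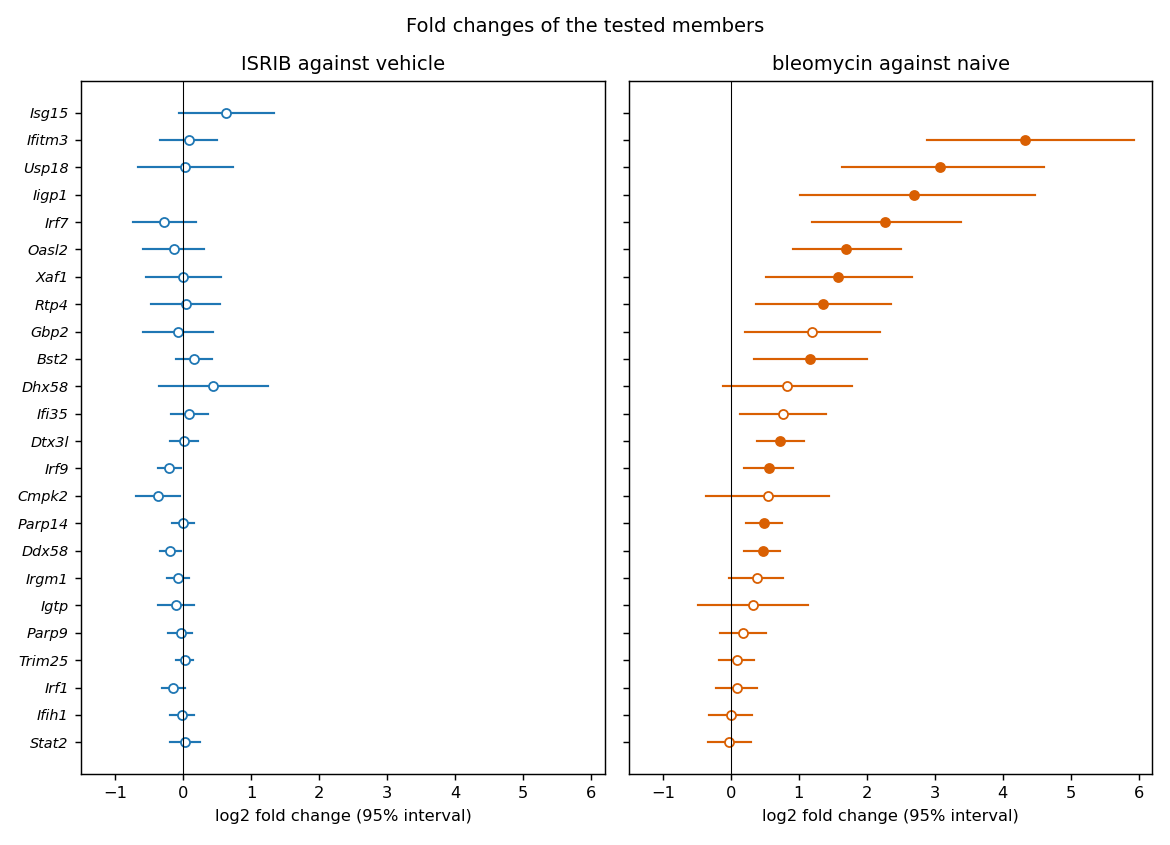
Log2 fold changes with 95% intervals of the members tested in either comparison, ISRIB against vehicle on the left and bleomycin against naive on the right, from edgeR. Filled points have an adjusted p under 0.05: none on the left, and the 12 on the right from Ifitm3 (4.32) to Ddx58 (0.47).

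After bleomycin 12 of the 23 members tested rose and 0 fell, by edgeR's quasi-likelihood test with Benjamini-Hochberg adjustment, where 20.5% of all 11223 genes tested passed (11.2% higher, 9.31% lower). The genes that rose were Ifitm3, Usp18, Iigp1, Irf7, Oasl2, Xaf1, Rtp4, Bst2, Dtx3l, Irf9, Parp14 and Ddx58, with log2 fold changes from 4.32 down to 0.47. In bulk RNA, a change in how many cells express a gene and a change in RNA per cell cannot be told apart. Part of the count is set by the filter: 11 of the 23 members tested reached it in fewer than all 4 naive libraries, so that they were tested mainly through their bleomycin values, and 8 of the 12 calls are among them. Of the 12 members above the filter in all 4 naive libraries, 4 rose (Irf9, Ddx58, Dtx3l and Parp14). The log2 fold changes of these 12 ran from -0.02 to 0.77. The share that rose among all genes above the filter in all 4 naive libraries was not counted, so these 4 have no like background. Of the 23 members tested, 21 had a log2 fold change above 0, against 50.2% of all genes tested. In 10 the lowest bleomycin library was above the highest naive library. The filter bears on these counts too. All 11 members that reached it in fewer than 4 naive libraries stood above 0 (0.54 to 4.32), and 6 of the 10 are among them. The other 4 are among the 12 members above the filter in all 4 naive libraries. No member lay apart in the lower direction. Over all genes tested, 10.4% lay apart in the higher and 9.35% in the lower direction. Of the 11 untested members 4 were also apart in the higher direction (Isg15, Ifit3, Rsad2 and Gbp3), and over all 34 members 31 had a higher mean CPM after bleomycin, counts for which no background over untested genes was made.

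Among the 4 transcription factors, Irf9 and Irf7 rose while Irf1 and Stat2 did not pass. Irf9 was at 22.5, 18.6, 23.7 and 18.2 CPM in the naive libraries and 28.3, 34.1, 29.1, 24.1 and 35.9 in the bleomycin libraries. The lowest bleomycin library was just above the highest naive library, and the log2 fold change was 0.56 (SE 0.17, edgeR adjusted p = 0.0282). Irf7, which drives type I interferon production, was at 1.68, 0.641, 1.2 and 1.19 CPM in naive and 4.50, 10.3, 3.41, 5.57 and 4.28 after bleomycin, a log2 fold change of 2.27 (SE 0.52, edgeR adjusted p = 0.00453). All 5 bleomycin libraries exceeded the naive ones, with bleomycin 2 the highest. Of the exon bases of Irf7, 45 overlap Phrf1 on the other strand, and 124 of Usp18 overlap Gm44148. Whether the counting used strand is not known here. Exons of Irf9, Rtp4 and Parp14 overlap another gene on the same strand (Rnf31, Gm45338 and Gm49730). Stat2, the partner of IRF9, was at 34.2, 30.6, 31.2 and 28.3 CPM in naive and 25.9, 35.2, 26.8, 34.7 and 30.7 after bleomycin, with overlapping groups, a log2 fold change of -0.02 with a 95% interval of -0.34 to 0.30. Irf1 was at 53.0, 38.9, 36.9 and 43.5 CPM and then 41.3, 45.5, 50, 52.3 and 39.4, all inside the naive range, and stood at 0.09 (-0.22 to 0.39). The call for Irf9 did not survive leaving out naive 1, naive 2, naive 4, bleomycin 2 or bleomycin 5, where its log2 fold change was 0.60, 0.51, 0.50, 0.52 and 0.50, with edgeR adjusted p-values from 0.0517 to 0.101.

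Of the 3 RIG-I-like sensors, Ddx58 rose. It was at 37.2, 40.8, 36.3 and 32.2 CPM in naive and 49.5, 50.2, 50.9, 50.4 and 52.4 after bleomycin. The bleomycin libraries lay close together and clear of the naive ones, with a log2 fold change of 0.47 (SE 0.13, edgeR adjusted p = 0.0142). Without naive 4 it was 0.41 with an edgeR adjusted p of 0.0702. Ifih1, which encodes the related sensor MDA5, was at 34.4 ± 2.55 CPM in naive and 34.2 ± 4.72 after bleomycin, a log2 fold change of 0.00 (95% interval -0.32 to 0.31). Dhx58 stood at 0.83 (-0.11 to 1.78), and its groups overlapped. Trim25 was at 82.9, 67.3, 66.4 and 71.8 CPM in naive and 79.6, 90.2, 71.7, 69.6 and 70.5 after bleomycin, also with overlap (0.09, -0.17 to 0.34). Zbp1, a sensor of Z-form nucleic acid, was below the filter. It had 0.335, 0, 0.901 and 1.79 CPM in naive and 8.20, 7.94, 5.88, 0.619 and 1.74 after bleomycin. Bleomycin 1, 2 and 3 were far above the naive libraries, and bleomycin 4 and 5 lay inside their range.

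The ISG15 pair held a gene that rose and a gene too low to test. Usp18, which removes ISG15 from proteins and restrains type I interferon signalling, was at 0, 1.5, 0.901 and 0 CPM in naive and 2.91, 9.38, 6.04, 7.73 and 3.01 after bleomycin. The groups did not overlap, and the log2 fold change was 3.07 (SE 0.71, edgeR adjusted p = 0.00439), from 10 counts over the naive and 146 over the bleomycin libraries. It was 4.11 without naive 2, which held 7 of the 10 naive counts, and between 2.70 and 3.25 when any other library was left out. Isg15 was at 0.671, 0.641, 0.601 and 0 CPM in naive and 2.12, 5.96, 3.10, 4.33 and 1.58 after bleomycin. All 5 bleomycin libraries were above the naive ones, from 7 naive and 85 bleomycin counts. Per unit of depth this was a ratio of 6.88, with a 95% interval of 3.20 to 17.6 that covers counting error only, as do all the intervals on ratios of summed counts given here.

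Both membrane-active restriction factors rose. Ifitm3, whose protein blocks virus entry at endosomes, had the largest estimate among the members tested. It was at 0.335, 0.641, 0.601 and 0 CPM in naive and 11.6, 18.9, 5.11, 2.78 and 5.23 after bleomycin. Bleomycin 1 and 2 were the highest, and even the lowest bleomycin library was above all naive ones. The log2 fold change was 4.32 (SE 0.73, edgeR adjusted p = 3.13e-04), and the ratio of summed counts, 224 against 6, was 21.1 (9.57 to 58.2). Without bleomycin 2, bleomycin 3 or bleomycin 5 it fell below the filter and had no test. Bst2 was at 2.68, 2.35, 3.90 and 3.28 CPM in naive and 3.70, 8.48, 9.45, 5.26 and 6.81 after bleomycin. Bleomycin 1 lay inside the naive range, and the log2 fold change was 1.16 (SE 0.39, edgeR adjusted p = 0.0423). That call was lost in 10 of its 15 alternatives, among them the removal of any naive library (estimates 1.04 to 1.30) and of bleomycin 2, 3 or 5 (1.02 to 1.17).

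Oasl2, a relative of the oligoadenylate synthetases that activate RNase L, was at 3.02, 1.92, 3.6 and 3.87 CPM in naive and 13.2, 14.4, 8.52, 8.35 and 5.54 after bleomycin. The groups did not overlap, bleomycin 1 and 2 were the highest, and the log2 fold change was 1.70 (SE 0.38, edgeR adjusted p = 0.00364). Oas1a had 1 naive and 33 bleomycin counts, 19 of them in bleomycin 2, for a ratio of 18.7 with an interval of 3.13 to 760. It belongs to a family of near-identical copies among which reads may have been split. Mx1 had 3 naive and 48 bleomycin counts (ratio 9.06, 2.92 to 45.5), with none in bleomycin 4, and Mx2 had 9 and 30 (1.89, 0.874 to 4.52).

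Rsad2, which encodes viperin, an enzyme that makes a chain-terminating nucleotide, was at 0.335, 0.214, 0.601 and 0 CPM in naive and 6.61, 2.17, 3.10, 5.26 and 1.11 after bleomycin. All bleomycin libraries lay above the naive ones, and the ratio of summed counts, 81 against 4, was 11.5 (4.31 to 43.1). Its neighbour Cmpk2, which was tested, had a log2 fold change of 0.54 (95% interval -0.36 to 1.44) and overlapped between the groups. The 3 IFIT genes, which encode proteins that bind viral RNA, gave different ratios, and the differences between them were not tested. Ifit3 was at 0, 0.214, 0.300 and 0.596 CPM in naive and 1.59, 1.62, 1.24, 4.64 and 1.27 after bleomycin, apart in all libraries, with a ratio of 6.51 (2.38 to 24.9) from 4 and 46 counts. Ifit1 had a ratio of 1.94 (1.18 to 3.33) with overlapping groups, and Ifit2 a ratio of 0.881 (0.471 to 1.69). A near-identical copy, Ifit3b, may share the reads of Ifit3.

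**Figure D3:**
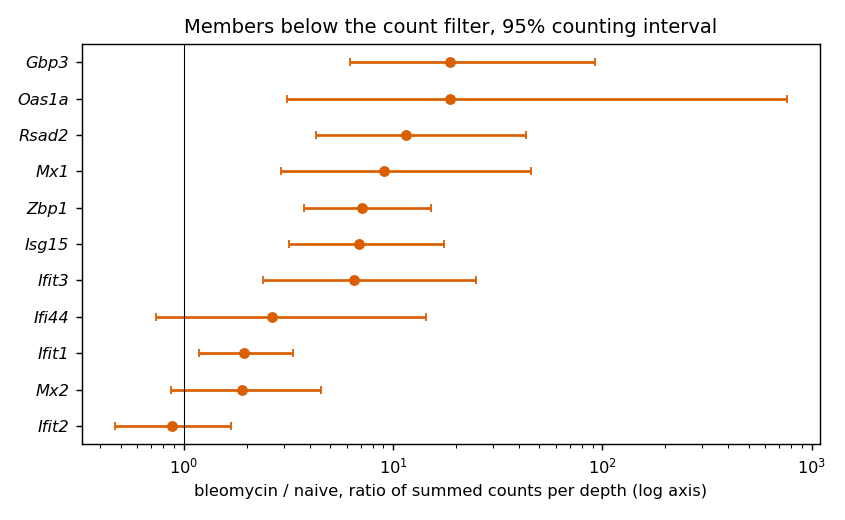
Ratio of summed counts per depth, bleomycin over naive, for the 11 members below the count filter, on a log axis, with 95% intervals for counting error. The intervals of Ifi44, Mx2 and Ifit2 include 1, and the other 8 lie above it, from Ifit1 at 1.94 to Gbp3 and Oas1a at 18.7.

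Dtx3l and Parp14 rose and Parp9 did not pass, although the proteins of Dtx3l, a ubiquitin ligase, and Parp9 form a complex and their genes are neighbours on chromosome 16. Dtx3l was at 28.2, 29.5, 28.5 and 23.5 CPM in naive and 34.7, 48.9, 43.8, 58.5 and 41.5 after bleomycin. The groups did not overlap, and bleomycin 4 was the highest, with a log2 fold change of 0.72 (SE 0.16, edgeR adjusted p = 0.0042). Parp14, an ADP-ribosyltransferase, was at 58.7, 56.2, 57.6 and 69.4 CPM in naive and 89.9, 93.7, 80.8, 70.5 and 89.0 after bleomycin. The highest naive library, naive 4, was just below the lowest bleomycin library, bleomycin 4, and the log2 fold change was 0.49 (SE 0.12, edgeR adjusted p = 0.00877). Parp9 was at 28.8, 24.8, 34.5 and 31.9 CPM in naive and 36.5, 33.4, 40.9, 29.4 and 28.7 after bleomycin. It overlapped between the groups and stood at 0.18 (95% interval -0.16 to 0.52), and 458 of its exon bases overlap exons of Dtx3l on the other strand. The difference between the fold changes of Dtx3l and Parp9 was not tested.

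Among the guanylate-binding proteins and immunity-related GTPases, which act on the vacuoles of intracellular microbes, Iigp1 rose. It was at 0, 0, 3.30 and 0 CPM in naive and 6.35, 6.5, 2.94, 6.81 and 4.28 after bleomycin. Every one of the 11 naive counts was in naive 3, which lay above bleomycin 3. The log2 fold change was 2.70 (SE 0.83, edgeR adjusted p = 0.0239), and without naive 1, naive 2 or naive 4 it was 2.34, 2.22 and 2.30 with edgeR adjusted p-values of 0.0797, 0.0813 and 0.0861. Without naive 3 no naive count remained, and the fitted value of 7.6 (edgeR adjusted p = 0.000413) then depends on the prior count and is no bound. DESeq2 gave 2.72 with an adjusted p of 0.115, and limma-voom 3.97 with an adjusted p of 0.0031. Gbp3 was below the filter, at 0, 0.427, 0.300 and 0 CPM in naive and 4.76, 7.76, 2.48, 1.86 and 2.53 after bleomycin. Its groups were apart, and the ratio of summed counts, 99 against 3, was 18.7 (6.21 to 92.2). Gbp2 stood at a log2 fold change of 1.2 (edgeR adjusted p = 0.0805), with bleomycin 1 at 1.85 CPM, below all naive libraries, and bleomycin 2, 4 and 5 between 8.23 and 8.48. Without bleomycin 1 it passed, at 1.42 (edgeR adjusted p = 0.0172). Irgm1 (0.38, 95% interval -0.02 to 0.77) and Igtp (0.33, -0.48 to 1.13) did not pass.

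Of the remaining members, Xaf1, which encodes a binding partner of the apoptosis inhibitor XIAP, was at 1.68, 1.5, 2.10 and 0.894 CPM in naive and 6.88, 5.23, 2.94, 6.19 and 2.38 after bleomycin. Rtp4, which encodes a receptor transporter protein, was at 2.01, 1.28, 1.5 and 1.49 CPM and then 2.91, 5.96, 4.03, 4.02 and 3.01. Both were apart in all libraries, with log2 fold changes of 1.57 (SE 0.51, edgeR adjusted p = 0.0332) and 1.35 (SE 0.47, edgeR adjusted p = 0.0482). The call for Xaf1 was lost without any 1 naive library or without bleomycin 1 (1.39 to 1.75, edgeR adjusted p from 0.0537 to 0.117), and without bleomycin 2 or bleomycin 3 the gene was not tested. The call for Rtp4 was lost without any 1 naive library and without bleomycin 2 or 3 (1.16 to 1.48, edgeR adjusted p from 0.065 to 0.141). Ifi35 stood at 0.77 (SE 0.30, edgeR adjusted p = 0.0805), and passed without bleomycin 4 (0.91, edgeR adjusted p = 0.0209). Ifi44 had 3 naive and 14 bleomycin counts (ratio 2.64, 0.738 to 14.3).

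**Figure D4:**
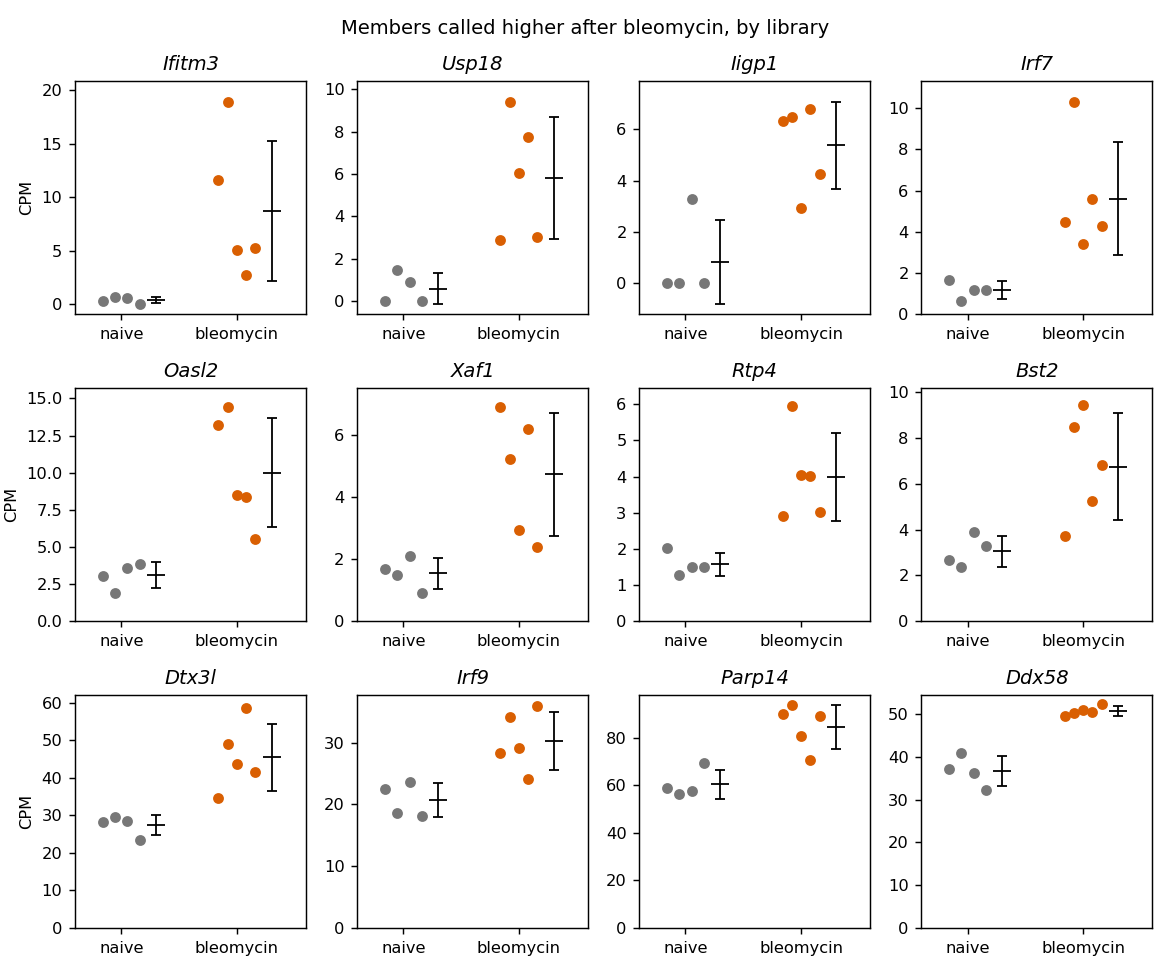
CPM of the 12 members that rose after bleomycin in each of the 4 naive (grey) and 5 bleomycin (orange) libraries, with the mean and SD beside the points and a separate vertical scale for each gene. The groups overlap for Iigp1 and Bst2 and lie apart for the other 10.

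Irf7, Usp18, Oasl2, Dtx3l and Parp14 kept an adjusted p under 0.05 in all 15 alternative fits, and Ifitm3 in the 11 in which it was tested. Of these genes, Irf7, Usp18, Oasl2 and Ifitm3 did not reach the filter in every naive library. The alternative fits share most or all of their libraries, so they are not independent. The number of members that rose was 7 of 21 tested without bleomycin 2, against 17.6% of all genes called in that fit. There Irf9, Bst2 and Rtp4 missed the threshold and Ifitm3 and Xaf1 were not tested. Without the count filter, 26897 genes were fitted, the median of all genes moved to -0.265, and 14 of the 34 members were called against 9.63% of all genes. Of these 14, 9 were among the 12 named above, and the other 5 were Zbp1, Isg15, Mx1, Rsad2 and Gbp3, with log2 fold changes of 2.74, 2.77, 3.03, 3.55 and 4.10. The median over all 34 members was 1.05 in that fit. An ISRE core was present in 3 of the 8 members that rose and had a RefSeq window (Ifitm3, Bst2 and Ddx58), in 5 of the 9 tested members that did not pass, and in 6 of the 8 untested ones.

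Some other features of the libraries moved with the same groups. Genes with a count numbered 17108 to 19763 in the naive and 13940 to 17112 in the bleomycin libraries. The total counts were 3295257 to 4654479 and 3299824 to 6333166. The summed CPM of the 34 members ran from 389.7 to 436.7 in naive and from 530.0 to 653.6 in bleomycin, with bleomycin 2 the highest. Summed fibroblast markers (7 genes) were at 3.87 to 10.1 CPM in naive and 17.5 to 115 in bleomycin, again highest in bleomycin 2 and next in bleomycin 1 (54.5), and 3 of the 3 tested rose (Col1a1, Col1a2 and Col3a1). The untested Dcn had 1 naive and 51 bleomycin counts with the groups apart, and Lum had no count in either group. Also untested, Pdgfra went from 14 to 27 counts (ratio per depth 1.09, 0.553 to 2.25) and Pdgfrb from 12 to 27 (1.27, 0.624 to 2.76). Both overlapped between the groups. Summed endothelial markers (7 genes) were at 19.4 to 27.6 and 20.4 to 75.1 CPM, with 2 of 5 tested higher. Alveolar type 1 markers (8 genes) were at 1090 to 1310 and 1740 to 2290 CPM, with 6 of 7 tested higher. AT2 markers (10 genes) were at 80800 to 88200 and 50400 to 88700 CPM. Of these 10, all tested, 2 rose (Sftpd at 0.58 and Napsa at 0.40) and 1 fell (Etv5 at -0.43). The largest part of the AT2 sum was Sftpc, which was not called (means 38500 and 28500 CPM). Of the 7 airway epithelial markers, 3 of 6 tested rose: Foxj1 (log2 fold change 2.27), Tekt1 (2.03) and Ccdc153 (1.72), each highest in bleomycin 2. Scgb1a1 (-0.17), Scgb3a2 (0.04) and Muc5b (0.98) were not called. The summed level was at 375 to 808 and 412 to 797 CPM, most of it Scgb1a1 (means 604 and 536 CPM). The part of these cells in the members' values was not tested. Summed macrophage and monocyte markers (10 genes) were at 10.8 to 15.4 CPM in naive and 9.98 to 14.6 in bleomycin, and all 10 overlapped between the groups. Of the 3 tested, 0 were called (Cd68 at a log2 fold change of 0.36, Csf1r at -0.40 and Ly6c2 at -0.31). The untested ones went, as counts summed over naive and then bleomycin, from 7 to 23 for the pan-leukocyte gene Ptprc, 1 to 4 for Ccr2, 16 to 23 for Mrc1, 4 to 1 for Fcgr1, 4 to 0 for Itgax and 1 to 0 for Adgre1, with no count for Marco in either group. Lymphocyte markers (9 genes) were at 0 to 2.35 and 0 to 0.619 CPM, and neutrophil markers (6 genes) at 0 to 0.601 and 0 to 1.80 CPM. On the neutrophil list, Retnlg went from 1 to 18 counts, 10 of them in bleomycin 2 (ratio per depth 10.2, 1.61 to 425). Its groups overlapped. Csf3r had 1 count in each group, and S100a8, S100a9, Ly6g and Cxcr2 had none in bleomycin. With both bleomycin 1 and bleomycin 2 left out, a choice made after seeing these sums, 20.9% of all genes were called. Of the 22 members tested there, 8 were called, all of them higher. Of these, 7 were among the 12. Bleomycin 3, 4 and 5, which remained, had fibroblast sums of 17.5, 22.3 and 26.4 CPM, still above all naive libraries. In the poly(A) libraries macrophage and monocyte markers were at 21.7 to 32.4 CPM in vehicle and 25.9 to 28.3 after ISRIB.

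**Figure D5:**
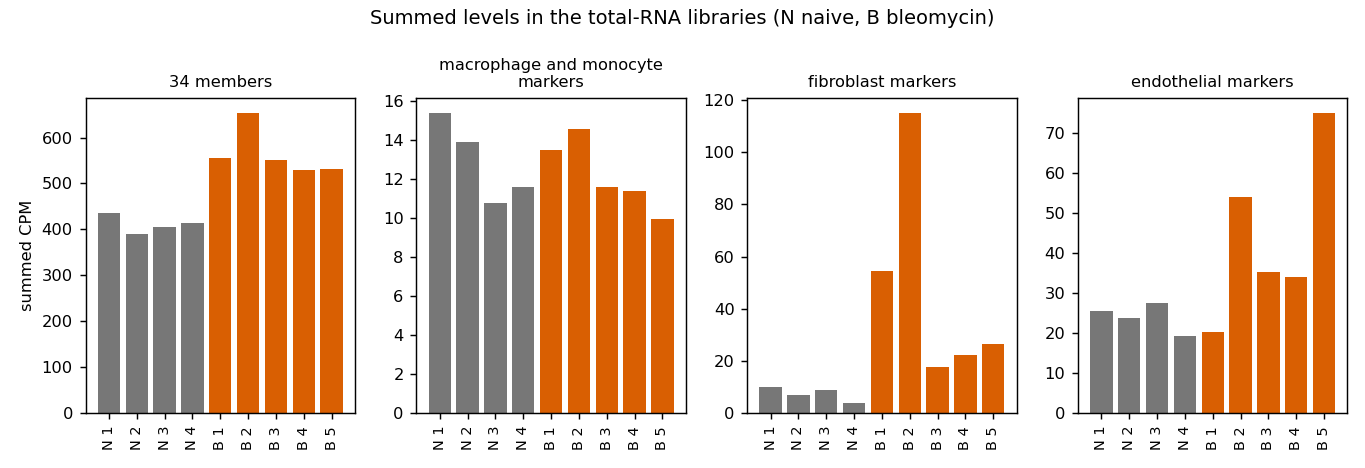
Summed CPM of the 34 members and of 3 marker lists (10 macrophage and monocyte, 7 fibroblast and 7 endothelial genes) in the 4 naive (N, grey) and 5 bleomycin (B, orange) libraries, on separate linear scales from 0. Member sums are at 530.0 to 653.6 CPM in the bleomycin libraries and at 389.7 to 436.7 in the naive ones, and fibroblast markers are highest in B 2.

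The rest of the pathway was followed with a fixed list of 101 other interferon genes, of which 98 were in the tables and 62 were tested in each comparison. The 9 interferon genes on it were all too low to test. They had 14 counts over the vehicle and 9 over the ISRIB libraries, all from Ifnk, and 4 over the naive and 2 over the bleomycin libraries. Of the 6 receptor genes, 0 were called after ISRIB and 2 rose after bleomycin. Ifngr2, a chain of the type II receptor that is named here after its value was seen, rose by 0.93 (SE 0.21, edgeR adjusted p = 0.00395), and Ifnar1, a chain of the type I receptor, rose by 0.42 (SE 0.14, edgeR adjusted p = 0.038). Ifngr1 stood at 0.09 and the type III receptor chain Ifnlr1 at -0.35 after bleomycin. After ISRIB, Ifnar1 stood at -0.03, Ifngr1 at 0.01 and Ifnlr1 at -0.12. Eif2ak2, which encodes the RNA-activated kinase PKR that phosphorylates eIF2, stood at 0.36 after bleomycin (edgeR adjusted p = 0.107) and at 0.13 after ISRIB (edgeR adjusted p = 0.439).

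After bleomycin 11.2% of all genes tested rose and 9.31% fell (20.5% in either direction). How many of the 62 pathway genes reached the filter mainly through their bleomycin values was not counted. Of these 62, 17 rose and 0 fell (27.4%), with a median log2 fold change of 0.25. The largest were Lgals3bp, a secreted glycoprotein, at 2.32, the GTPase Tgtp1 at 2.09, Tmem173, which encodes the DNA-sensing adaptor STING, at 1.82, Trim30a at 1.66 and the nuclear body protein Sp100 at 1.55. Tgtp1 has a near-identical copy, Tgtp2, that may share its reads. Tmem173 was at 6.71, 6.41, 2.70 and 5.07 CPM in naive and 19.0, 26.7, 16.9, 12.4 and 17.4 after bleomycin, with every bleomycin library above the naive ones. Socs3, which encodes a feedback inhibitor of cytokine receptors, rose by 0.63 (SE 0.15, edgeR adjusted p = 0.00645).

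After ISRIB 2 of the 62 were called, 1 in each direction (3.23%, against 2.2% of all genes tested). Socs3 was at 98.7, 133, 90.6 and 86.7 CPM in vehicle and 61.5, 58.2, 62.4 and 58.5 after ISRIB, and fell by 0.76 on the log2 scale (SE 0.10, edgeR adjusted p = 0.00121). Irf2, a factor that competes with IRF1 at its sites, was at 56.7, 58.2, 57.8 and 69.7 CPM and then 75.4, 73.4, 88.6 and 79.7, and rose by 0.39 (SE 0.08, edgeR adjusted p = 0.0137). For both genes the groups did not overlap. Without vehicle 1, and likewise without vehicle 2, a lone pathway gene was called, lower after ISRIB. Set beside each other, the comparisons share no library: the 22 members tested in both had a correlation of log2 fold changes of 0.12 (Pearson) and 0.19 (Spearman) across genes, and all 10737 genes tested in both had 0 and -0.01. Genes are not independent replicates, and the kits differ.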

How the data were processed

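Reads were counted per gene by the authors, and the deposited tables hold whole-number counts. Per the submitters' processing notes, the tools were bcl2fastq 2.19.1, FastQC, Trimmomatic 0.36, STAR 2.6.0 and HTSeq 0.11.2 with the build mm10. Their order, the annotation and the strand setting are not given in any source used here. Libraries were grouped by their treatment and condition labels, and the 2 tables, made with 2 kits, were fitted separately. In edgeR 4.0.16 (R 4.3.3), genes were kept by filterByExpr (minimum count 10, minimum total 15), scaled by TMM and tested by quasi-likelihood F tests (two-sided), with Benjamini-Hochberg adjustment over all genes tested and a threshold of 0.05. CPM used the scaled library sizes, and RPKM the union exon length in GENCODE M21. Intervals on ratios of summed counts are 95% exact binomial (Clopper-Pearson) intervals on the counts of the compared groups, turned into ratios per depth. By the naming rule, values per library are given for members called and for the 5 highest per length in vehicle and in naive, and pathway genes are named when among the 5 largest called changes in each direction, plus Eif2ak2, Ifnar1, Ifngr1, Ifnlr1 and a further gene that is not reported here. Values per library of other members, and Ifngr2, were added after they were seen. The members and the lists were chosen with earlier results of these data known. Counts were simulated with 200 genes changed, drawn at random from all genes tested. On these counts the bleomycin fit of 11223 genes recovered 15.5%, 67.2% and 95.7% of changes of 0.5, 1 and 2 on the log2 scale. Alternatives were RLE size factors, no count filter, DESeq2 1.42.0, limma-voom (limma 3.58.1), the replicate number as a block, and each library left out. Gbp5, Gbp6 and Mb21d1 of the pathway list were not matched to a row. Promoter windows were matched by symbol, and Dhx58, Iigp1, Mx1, Mx2, Parp14, Parp9, Rtp4, Usp18 and Zbp1 had none.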

Additional observations from a re-analysis of the deposited data

Results flagged for a closer look

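Of 144 sets of values examined (each of the 34 members, their summed CPM and their mean score, in each of the 4 groups), 17 held a library far from the others by Dixon's criterion, which chance alone meets in about 1 set in 20, and sets of few counts and many zeros meet it easily. Among the poly(A) libraries, Dhx58 was at 2.81 CPM in vehicle 4 (others 0.852 to 1.18), Trim25 at 81.3 in ISRIB 3 (86.8 to 87.5), Parp9 at 29.6 in ISRIB 1 (33.6 to 33.7), Irgm1 at 25.1 in ISRIB 3 (27.4 to 27.6) and Rsad2 at 1.32 in ISRIB 4 (0.319 to 0.481). Mx1 was at 0.0904 CPM in vehicle 2 and Mx2 at 0.0656 in vehicle 3, each a lone count with 0 in the other vehicle libraries. Among the naive libraries, Gbp2 was at 4.03 CPM in naive 1 (others 2.09 to 2.40) and Isg15 at 0 in naive 4 (0.601 to 0.671). Naive 3 stood alone above 0 for Iigp1 (3.30 CPM), Mx1 (0.901) and Oas1a (0.300). After bleomycin, bleomycin 4 was lowest for Ifih1, at 26.0 CPM (others 34.9 to 37.9), and highest for Ifit1, at 6.19 (1.85 to 3.01), and Ifit3, at 4.64 (1.24 to 1.62). The summed CPM of the 34 members was 653.6 in bleomycin 2 (530.0 to 555.8). The mean log2 CPM of the tested members, relative to the naive mean, was 1.26 in bleomycin 2 (0.81 to 0.86).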

How the results depend on the processing

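After ISRIB, 0 members were called in every alternative run, and the 2 pathway genes became 1 to 2 as single libraries were left out. After bleomycin, 12 of 23 members tested became 7 of 21 (without bleomycin 2) to 14 of 24 (without bleomycin 4), and 11 with DESeq2 and 9 with limma-voom. The share of all genes called was 20.5% in the fit described above. It was 17.6%, 21.6%, 22.5% and 19.6% in these 4 alternatives, in that order. The 17 pathway genes became 10 to 17 (11 without naive 1, and 10 without naive 2 or naive 4), and 12 with limma-voom. Without naive 1, naive 2 and naive 4, the share of all genes called was 14.5%, 15.1% and 13.3%. Leaving out single libraries turned the sign of these members' log2 fold changes, none of which was called in that comparison. After ISRIB the ranges were -0.04 to 0.09 for Stat2, -0.07 to 0.08 for Ifih1, -0.02 to 0.04 for Trim25, -0.14 to 0.32 for Usp18, -0.22 to 0.03 for Oasl2, -0.04 to 0.21 for Ifitm3, -0.10 to 0.01 for Parp9, -0.05 to 0.09 for Dtx3l, -0.04 to 0.05 for Parp14, -0.22 to 0.21 for Gbp2 and -0.12 to 0.20 for Rtp4. After bleomycin the range was -0.07 to 0.04 for Stat2. Xaf1 after ISRIB and Ifih1 after bleomycin, both at 0.00, took values from -0.12 to 0.16 and from -0.04 to 0.08, and Trim25 stood at -0.02 with both bleomycin 1 and bleomycin 2 left out, an alternative chosen after seeing the data. The cause was not tested. The labels do not say whether replicate numbers pair libraries. Deviations from the group means correlated between -0.11 and 0.08 for same-numbered libraries and between -0.17 and 0.14 for differently numbered ones. With so few libraries this cannot settle whether any were paired. With the replicate number as a block, 0 members were called after ISRIB and 9 after bleomycin, where Irf9 (0.48, edgeR adjusted p = 0.0896), Bst2 (1.11, 0.100) and Rtp4 (1.41, 0.107) missed the threshold, and 2 and 15 pathway genes. The fit with this block called 2.3% of all genes after ISRIB and 19.5% after bleomycin. In each comparison 11 members were too low to test.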
